A study of Mus musculus with 2 samples.

Results

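Follicular helper T cells are the CD4 T cells that help B cells make antibody, and 10 genes of their program were followed here: Bcl6, Cxcr5, Icos, Il21, Sh2d1a, Tnfsf8, Cd200, Izumo1r, Sostdc1 and Tbc1d4. They were chosen by name among 32285 genes counted, for their known link to these cells and with earlier results of these data known. Sostdc1, Tbc1d4, Izumo1r, Tnfsf8 and Cd200 had already been named by the study among the genes that define a cluster of its CD4 T cells. The study also reported Bcl6, Cxcr5 and Pdcd1 as highest in that cluster, and named 2310001H17Rik among its defining genes. The shared presence of all these genes in CD4 T barcodes below is thus a description and not independent evidence. UMIs (unique molecular identifiers, each standing for 1 captured RNA molecule) of the 10 genes were summed in barcodes gated by their own transcripts. CD4 T barcodes carried Cd3e and Cd4 without Cd8b1, CD8 T barcodes carried Cd3e and Cd8b1, and B barcodes carried Cd79a and Ms4a1, all without Csf1r. No barcodes were clustered, and a CD4 T barcode here is any CD4 T cell by its transcripts, not a sorted follicular helper cell.

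The mice were C57BL/6 animals aged 6 to 12 weeks, with the wild type Ptpn22 allele (PEP-WT) or homozygous for the proautoimmune PEP-619WW allele, which was introduced by CRISPR/Cas9. Every mouse had received LCMV-cl13, a lymphocytic choriomeningitis virus that sets up a lasting infection, and spleens were collected 8 days later. Cells of 4 to 5 animals were pooled for each genotype, sorted as live CD45+ cells and profiled by the 10x Genomics 3′ assay, with no uninfected library analysed here. Pooling leaves no error between animals, so genotypes were compared without a test. All intervals are 95% intervals that cover counting error only.

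The sample labels name liver, a Jurkat cell line and cells from a tumor as the source, whereas the design and protocol text describe mouse spleen. Each genotype had 2 sets of counts, run 1 and run 2, each of 1 library per genotype. The barcode numbers and median genes per barcode in the study's own quality control are those of run 2, whereas run 1 supplied all values here unless stated. It had 14821 PEP-WT barcodes (median 2832 UMIs) and 8576 PEP-619WW barcodes (median 3293 UMIs). The CD4 T gate held 287 PEP-WT barcodes (1982119 UMIs, median 4348) and 208 PEP-619WW barcodes (1683247 UMIs, median 6430.5), so the PEP-619WW barcodes were deeper. No barcode sequence was shared between the CD4 T gates, and 39 were shared between the whole libraries. The CD4 T gate of both libraries carried all 6 T cell markers examined, while the CD8 marker Cd8a had 4 UMIs in PEP-WT and 1 in PEP-619WW.

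The gate also held RNA of other cells, in unequal amounts. The summed level of 6 B cell markers was 636 CPM (UMIs of a gene per 1000000 UMIs of the gate) in PEP-WT CD4 T barcodes and 248 CPM in PEP-619WW, with all 6 at least 1.5-fold lower in PEP-619WW. The 5 neutrophil markers summed to 254 CPM and 1245 CPM, and the 5 erythroid markers to 1860 CPM and 111 CPM. The 5 plasma cell markers summed to 1796 CPM and 2031 CPM, with 3 at least 1.5-fold higher in PEP-619WW and any of them in 50.5% and 67.8% of barcodes. The 5 conventional dendritic cell markers summed to 351 CPM and 116 CPM. Of the CD4 T barcodes, 40 of PEP-WT (13.9%) and 15 of PEP-619WW (7.21%) also met the B gate. For the members, the differences between genotypes were also taken without barcodes that held B cell or myeloid genes or met the B gate, and over totals without immunoglobulin and hemoglobin genes. The part of erythroid, neutrophil and plasma cell barcodes in them, and of all this RNA in the other gene lists, was not tested. Ptpn22 itself was at 150 CPM (133 to 168) in PEP-WT CD4 T barcodes and 205 CPM (184 to 228) in PEP-619WW. A sum of UMIs does not read the allele, which is given here by the genotype of the mice.

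As background, Bcl6 is the transcription factor that sets the follicular helper program, and Cxcr5 is the receptor that brings the cells into B cell follicles. There the costimulatory receptor ICOS, the adaptor SAP encoded by Sh2d1a, and the cytokine interleukin 21 carry the exchange with B cells from which germinal centers form. In mice with a lasting LCMV infection, CD4 T cells are known to shift toward this program over time.

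The sequences just upstream of a start site are where transcription factors assemble, and RefSeq promoters (GRCm38.p6) were matched for 6 of the 10 genes. The 250 bases before the start of Il21 and of both listed Bcl6 starts are printed because these genes encode the factor that sets the program and its main cytokine, and all lie on the minus strand. Capitals mark matches on either strand to the letters GGAAAA (the NFAT core), TTCNNNGAA (STAT) or CTTTGA (TCF/LEF). The Il21 window is chr3:37232637-37232886, and the windows of the upstream and the downstream Bcl6 start are chr16:23988853-23989102 and chr16:23981284-23981533.
Il21: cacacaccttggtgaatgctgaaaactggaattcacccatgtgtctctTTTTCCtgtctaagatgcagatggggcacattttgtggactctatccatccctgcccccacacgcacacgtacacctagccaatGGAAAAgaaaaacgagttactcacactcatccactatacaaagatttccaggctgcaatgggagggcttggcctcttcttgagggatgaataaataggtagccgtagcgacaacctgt
Bcl6 upstream start: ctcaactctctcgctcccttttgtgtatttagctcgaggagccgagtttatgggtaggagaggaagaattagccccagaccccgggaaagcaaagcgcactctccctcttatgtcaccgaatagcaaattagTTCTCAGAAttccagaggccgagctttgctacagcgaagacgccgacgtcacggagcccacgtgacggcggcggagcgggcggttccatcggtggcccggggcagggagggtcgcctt
Bcl6 downstream start: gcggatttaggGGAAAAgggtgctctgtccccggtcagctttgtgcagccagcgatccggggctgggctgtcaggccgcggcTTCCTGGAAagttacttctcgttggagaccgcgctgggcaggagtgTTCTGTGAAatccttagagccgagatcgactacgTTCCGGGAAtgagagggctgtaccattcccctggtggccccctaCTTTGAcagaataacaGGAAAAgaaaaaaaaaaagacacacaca
The Il21 window held 2 matches to GGAAAA, the upstream Bcl6 window held 1 match to TTCNNNGAA, and the downstream Bcl6 window held 3 matches to TTCNNNGAA, 2 to GGAAAA and 1 to CTTTGA. Among all 32851 promoter windows of this length, 20.4% held GGAAAA, 7.02% TTCNNNGAA and 13.8% CTTTGA on either strand. The letters TGANTCA (AP-1) and CAGGTG (an E-box), present in 6.75% and 17.2% of all windows, were in none of these 3 windows, and CAGGTG occurred once in the window of Izumo1r. The windows of Tnfsf8, Tbc1d4 and Cd200 held no match to any of the 5. A match is a description of letters and not a binding site.

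The first comparison asked how specific the 10 genes were to CD4 T cells in these spleens. At least 2-fold higher levels in CD4 T than in CD8 T barcodes of both genotypes were found for 9 of the 10 genes, against 3.05% of the 10644 genes with enough UMIs, and 2.10% of those genes were lower by the same rule, with no member among them. Against B barcodes, 8 of the 10 were at least 2-fold higher in both genotypes, where 7.24% of 11654 genes were higher and 5.57% lower. The members together were at 1467 CPM in PEP-WT CD4 T barcodes, 407 CPM in CD8 T and 160 CPM in B barcodes. In PEP-619WW the sums were 1650, 351 and 157 CPM. The log2 ratio of CD4 T over CD8 T was thus 1.85 (1.78 to 1.92) in PEP-WT and 2.23 (2.16 to 2.30) in PEP-619WW. Run 2 held a different mix of cells, given below, and is no repeat of run 1. There the ratio was 0.60 (0.47 to 0.73) in PEP-619WW (287 CD4 T and 324 CD8 T barcodes), with Cxcr5 at -2.49 and Sh2d1a at -1.03. It was -0.74 (-1.50 to -0.046) in PEP-WT, from 7 and 21 barcodes. Over B barcodes, the run 1 ratio was 3.20 (3.13 to 3.27) and 3.39 (3.31 to 3.47). In such sums, fewer cells that use a gene and less RNA per cell cannot be told apart.

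**Figure D1:**
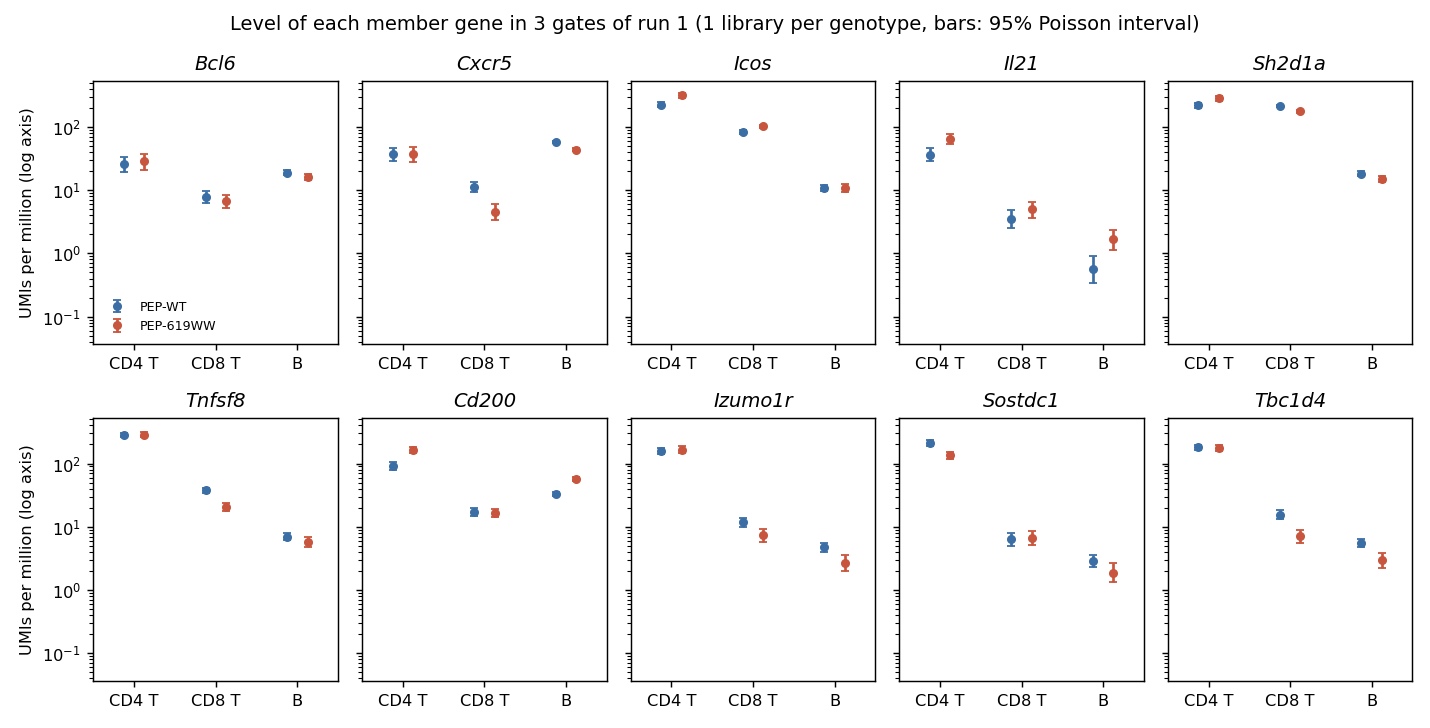
Level of each of the 10 genes in CPM (log axis) in CD4 T, CD8 T and B barcodes of run 1, with PEP-WT in blue and PEP-619WW in red, 1 library each, and bars for the 95% Poisson interval. Izumo1r, Sostdc1, Tbc1d4 and Il21 dropped steeply from CD4 T to B barcodes, Sh2d1a stayed at 214 and 176 CPM in CD8 T barcodes, and Cxcr5 was highest in PEP-WT B barcodes at 57.7 CPM.

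Bcl6 (ENSMUSG00000022508, chromosome 16 of GRCm38, 23965052 to 23988852) was among the least abundant members. In CD4 T barcodes it was at 25.7 CPM in PEP-WT (51 UMIs, 19.2 to 33.8) and 28.5 CPM in PEP-619WW (48 UMIs, 21.0 to 37.8). In CD8 T barcodes it was at 7.85 and 6.63 CPM, and in B barcodes at 18.9 and 16.2 CPM. The CD4 T level thus stood 1.71 (1.19 to 2.23) and 2.10 (1.54 to 2.66) log2 units above CD8 T, but only 0.45 and 0.82 above B cells, which use Bcl6 for the germinal center reaction. The intervals of the genotypes overlapped in CD4 T barcodes, and their log2 ratio was 0.15 (-0.45 to 0.75).

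Cxcr5 (ENSMUSG00000047880, chromosome 9, 44511787 to 44561877), the receptor for the follicular chemokine CXCL13, was at 36.8 CPM in CD4 T barcodes of both genotypes (28.9 to 46.3 in PEP-WT, 28.2 to 47.2 in PEP-619WW). B barcodes carried more of it in PEP-WT, at 57.7 CPM (55.1 to 60.5), and 43.7 CPM (40.7 to 46.8) in PEP-619WW. CD8 T barcodes carried 11.1 CPM in PEP-WT and 4.55 CPM in PEP-619WW. Cxcr5 was thus the single member below its B cell level in both genotypes, at log2 ratios of CD4 T over B of -0.65 (-1.01 to -0.31) and -0.25 (-0.64 to 0.13).

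Icos (ENSMUSG00000026009, chromosome 1, 60977927 to 61000320), which encodes a costimulatory receptor whose ligand sits on B cells, was at 225 CPM (204 to 246) in PEP-WT CD4 T barcodes and 314 CPM (288 to 342) in PEP-619WW. CD8 T barcodes held 82.2 and 101 CPM, and B barcodes 10.9 and 10.8 CPM. Icos was thus shared by both T cell classes, and was 4.36 and 4.86 log2 units higher in CD4 T than in B barcodes. Sh2d1a (ENSMUSG00000005696, chromosome X, 42502453 to 42529330) encodes the adaptor SAP, which acts behind receptors of the SLAM family and is also known from CD8 T and NK cells. It was at 220 CPM (200 to 242) and 280 CPM (256 to 307) in CD4 T barcodes and at 214 and 176 CPM in CD8 T barcodes. It was the member that did not pass the 2-fold rule, with log2 ratios of 0.04 (-0.11 to 0.19) in PEP-WT and 0.68 (0.53 to 0.82) in PEP-619WW. The few NK barcodes (49 and 25) held it at 209 and 167 CPM.

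Il21 (ENSMUSG00000027718, chromosome 3, 37222759 to 37232636), the cytokine that drives germinal center B cells and plasma cells, was at 36.3 CPM (72 UMIs, 28.4 to 45.7) in PEP-WT CD4 T barcodes and 64.8 CPM (109 UMIs, 53.2 to 78.1) in PEP-619WW. It was much lower elsewhere, at 3.52 and 4.95 CPM in CD8 T barcodes and 0.576 and 1.68 CPM in B barcodes. Tnfsf8 (ENSMUSG00000028362, chromosome 4, 63831308 to 63861347), the ligand of CD30, was at 285 CPM (262 to 309) and 286 CPM (261 to 312) in CD4 T barcodes. It was at 37.7 and 20.8 CPM in CD8 T and at 6.97 and 5.79 CPM in B barcodes. The log2 ratio of PEP-619WW over PEP-WT in CD4 T barcodes was 0.01, with an interval of -0.17 to 0.18.

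Cd200 (ENSMUSG00000022661, chromosome 16, 45382135 to 45409053), a surface protein that restrains cells bearing its receptor, was at 91.3 CPM (78.5 to 106) in PEP-WT CD4 T barcodes and 163 CPM (145 to 184) in PEP-619WW. In B barcodes it was at 33.1 and 56.6 CPM, so that PEP-619WW was the higher library in both gates. In CD8 T barcodes the levels were 16.9 and 16.6 CPM.

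The remaining 3 members are known from follicular helper cells without acting in B cell help directly. Izumo1r (ENSMUSG00000031933, chromosome 9, 14885814 to 14903949), which encodes folate receptor 4, was at 158 CPM (141 to 176) and 165 CPM (146 to 186) in CD4 T barcodes, 3.75 and 4.49 log2 units above CD8 T. Tbc1d4 (ENSMUSG00000033083, chromosome 14, 101442360 to 101609191), a GTPase-activating protein for Rab proteins known from glucose transport, was at 180 CPM (161 to 199) and 175 CPM (156 to 196), 3.53 and 4.62 above CD8 T. Both were near 10 CPM in CD8 T barcodes, with 11.7 and 7.33 CPM for Izumo1r and 15.6 and 7.13 CPM for Tbc1d4.

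Sostdc1 (ENSMUSG00000036169, chromosome 12, 36314139 to 36318452), a secreted antagonist of BMP and Wnt proteins, was at 210 CPM (190 to 231) in PEP-WT CD4 T barcodes and 135 CPM (118 to 154) in PEP-619WW. It was at 6.40 and 6.63 CPM in CD8 T barcodes and 2.88 and 1.89 CPM in B barcodes. Sostdc1 came from few barcodes, 66 of 287 in PEP-WT and 39 of 208 in PEP-619WW, and these carried 6.30 and 5.85 UMIs each. The other members were at 1.37 to 3.76 UMIs per barcode that had them. Sostdc1 was thus the member with the most UMIs per barcode that carried it, with up to 35 in a single PEP-WT barcode. Intervals of summed UMIs do not take such grouping of UMIs by barcode into account.

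The second comparison set PEP-619WW against PEP-WT within CD4 T barcodes, the question being whether summed levels of these genes differed with the Ptpn22 allele. The study reported the cluster named above as a larger share of CD4 T cells in PEP-619WW. By flow cytometry it also found a higher frequency of follicular helper cells in those mice. Summed UMIs over all CD4 T barcodes do not measure such frequencies. All 10 members had at least 20 UMIs. Of these, 2 were at least 1.5-fold higher in PEP-619WW, against 10.0% of the 9163 genes tested, and 1 was lower, against 11.3%. In either direction it was 3 of 10 members against 21.3% of genes. Among genes with at least 100 UMIs, which leaves out Bcl6 (99 UMIs), 12.8% were apart, and 3 members still were. Whether members were apart more often than other genes cannot be told from so few of them. The median log2 ratio was 0.11 over the members and -0.0026 over all genes tested.

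Cd200 had the highest log2 ratio, at 0.84 (0.56 to 1.12), followed by Il21 at 0.83 (0.39 to 1.28). Both came with more CD4 T barcodes that carried the gene, 52.4% against 30.7% for Cd200 and 21.2% against 14.6% for Il21. The PEP-619WW barcodes were deeper, and at equal depth the intervals of these shares overlapped, as given below. Sostdc1 was lower in PEP-619WW at -0.63 (-0.87 to -0.40), with the barcodes that held it at 18.8% against 23.0%. Icos and Sh2d1a were higher by less than 1.5-fold, at 0.49 (0.30 to 0.67) and 0.35 (0.16 to 0.54). The other 5 members, Bcl6, Cxcr5, Izumo1r, Tbc1d4 and Tnfsf8, had intervals that spanned 0. The members therefore did not share a direction, and the genes for the program's factor and homing receptor did not differ beyond counting error. Without barcodes carrying B cell or myeloid genes, Bcl6 was at 0.65 (-0.24 to 1.56), past 1.5-fold, and Cxcr5 at 0.36 (-0.42 to 1.15). Both intervals spanned 0, so they show neither a difference nor its absence.

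The summed members had a log2 ratio of 0.17 (0.09 to 0.24), and this sum did not keep its sign. It was -0.061 without T barcodes that carried any of 7 B cell or myeloid genes, -0.044 without T barcodes that met the B gate, -0.011 with each barcode thinned to 2000 UMIs and 0.31 with Csf1r barcodes kept. Cd200 and Il21 were above 0 and Sostdc1 below 0 in all 12 alternatives within run 1, but each went below 1.5-fold in some of them. Cd200 was at 0.42 (-0.11 to 0.96) thinned and 0.57 (0.11 to 1.04) without barcodes carrying B cell or myeloid genes, Il21 at 0.46 (-0.016 to 0.94) without those in the B gate and 0.55 as a mean over barcodes, and Sostdc1 at -0.47 with Csf1r barcodes kept and -0.55 without barcodes of 10 or more UMIs of Mt2. Il21 was at 0.62 (-0.13 to 1.38) without barcodes carrying B cell or myeloid genes, so for Cd200 and Il21 too some intervals spanned 0. Other settings put Sostdc1 further from 0, at -1.12 thinned, -0.99 without barcodes carrying B cell or myeloid genes and -0.92 without those in the B gate.

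Icos and Sh2d1a depended on the same settings. Sh2d1a was at -0.06 (-0.45 to 0.33) thinned, 0.11 (-0.17 to 0.39) without barcodes carrying B cell or myeloid genes and 0.14 (-0.06 to 0.34) without those in the B gate, all with intervals that spanned 0. Icos was at 0.32 (-0.03 to 0.67) and 0.20 (-0.10 to 0.50) in the first and second of these settings, and at 0.39 (0.19 to 0.59) in the last. Tnfsf8 and Tbc1d4 were lower in PEP-619WW in some of them. Tnfsf8 was at -0.31 (-0.58 to -0.042) without barcodes carrying B cell or myeloid genes and at -0.26 (-0.45 to -0.074) without those in the B gate, where Tbc1d4 was at -0.26 (-0.50 to -0.021).

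**Figure D2:**
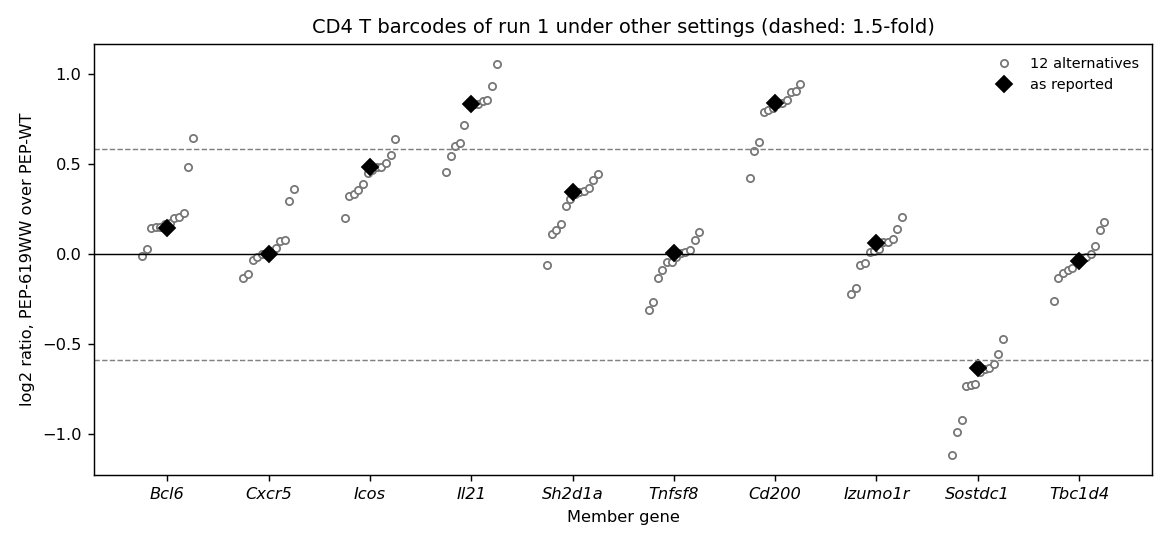
Log2 ratio of PEP-619WW over PEP-WT for each gene in CD4 T barcodes of run 1 (vertical axis), as reported (diamonds) and under 12 alternative settings (open circles), with dashed lines at 1.5-fold. The circles of Cd200, Il21 and Icos all lay above 0 and those of Sostdc1 all below it, whereas those of Bcl6, Cxcr5, Sh2d1a, Tnfsf8, Izumo1r and Tbc1d4 fell on both sides. Bcl6 and Sh2d1a each had only 1 circle below 0, at -0.009 and -0.06.

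In CD8 T barcodes no member was at least 1.5-fold higher in PEP-619WW (6.17% of 11732 genes were) and 4 were lower (6.33%, and 12.5% in either direction). These were Cxcr5 at -1.28 (-1.81 to -0.78), Tbc1d4 at -1.13 (-1.55 to -0.73), Tnfsf8 at -0.86 (-1.10 to -0.62) and Izumo1r at -0.68 (-1.11 to -0.26). Their CPM there were all at most 37.7, and 177 of 1315 PEP-WT and 100 of 861 PEP-619WW CD8 T barcodes also met the B gate. The sum of the 10 genes was at -0.21 (-0.28 to -0.15) in CD8 T barcodes and at 0.045 (-0.067 to 0.16) without those that held B cell or myeloid genes. In run 2, with only 21 CD8 T barcodes in PEP-WT against 324 in PEP-619WW, Izumo1r turned to 0.16 and Tnfsf8 to 2.02. In B barcodes 2 members were higher in PEP-619WW, against 8.37% of 12967 genes, and 3 were lower, against 5.34%, with 13.7% of genes in either direction. Cd200 was at 0.77 (0.65 to 0.90) and came from 1035 and 1047 UMIs, so it was the better counted of the 2 higher members, while Il21 at 1.54 (0.66 to 2.47) came from 18 and 31 UMIs. The lower members were Tbc1d4 at -0.92, Izumo1r at -0.83 and Sostdc1 at -0.60, all at most 5.63 CPM. As a mean over barcodes Sostdc1 turned to 0.049. The 6 T cell markers summed to 403 and 363 CPM in these B barcodes, and their part in the T cell members seen there was not tested.

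**Figure D3:**
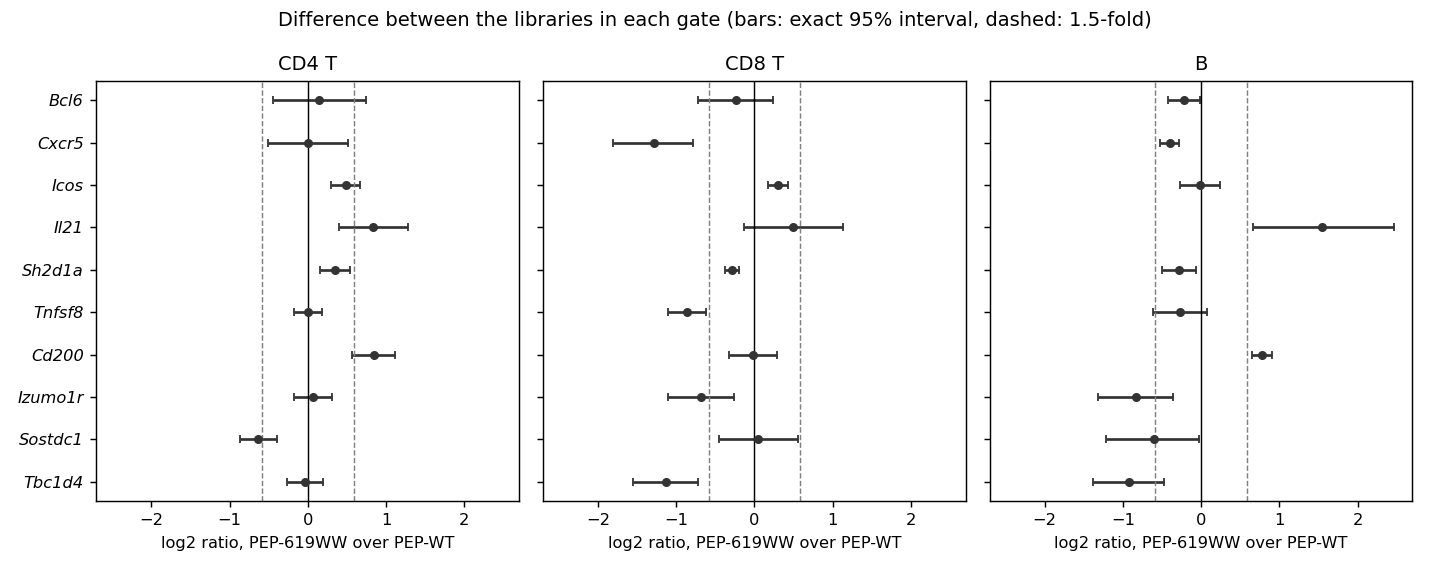
Log2 ratio of PEP-619WW over PEP-WT (horizontal axis) for each gene in CD4 T, CD8 T and B barcodes of run 1, with bars for the exact 95% interval and dashed lines at 1.5-fold. Cd200 lay right of the upper line in CD4 T and B barcodes but at -0.02 in CD8 T, and Cxcr5 lay at 0.00 in CD4 T and at -1.28 in CD8 T barcodes.

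The third comparison counted how many of the 10 genes each CD4 T barcode carried. In PEP-WT 166 of 287 barcodes (57.8%, 51.9 to 63.6%) had a UMI of at least 3 members, and in PEP-619WW 157 of 208 did (75.5%, 69.1 to 81.2%), a difference of 17.6 points (9.25 to 25.5). No member was seen in 41 (14.3%) and 13 (6.25%) barcodes. Drawing 2000 UMIs from every barcode, and dropping the 24 PEP-WT and 2 PEP-619WW barcodes below that depth, gave shares of 36.9% and 38.8%. The difference at this equal depth was 1.95 points (-6.80 to 10.8), which was not detectable.

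At 6 or more members the shares were 26.1% in PEP-WT and 30.3% in PEP-619WW, and 6.08% and 6.31% after thinning. At equal depth, at least 3 members were seen in 3.22% and 1.44% of CD8 T barcodes and in 0.372% and 0.299% of B barcodes. Neutrophil barcodes, which carried Bcl6 but should lack the members particular to lymphocytes (median 3365 and 3968 UMIs), had at least 3 in 2.14% and 0% before thinning (0 of 259, up to 1.41% by the exact interval) and in none after it. The neutrophil gate had left out barcodes with Cd3e, Cd79a, Ms4a1 or Csf1r, and so those with such T or B cell RNA. The CD4 T gate left out no barcodes with B cell genes. The CD4 T shares stood far above this background in both libraries, but the neutrophil gate itself may have lowered it.

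**Figure D4:**
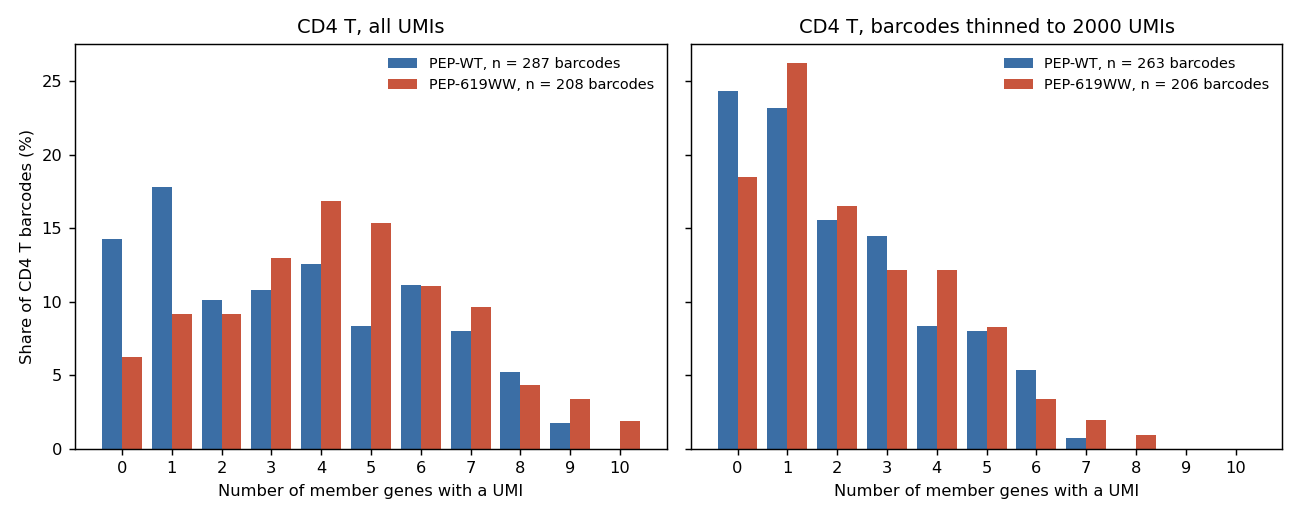
Share of CD4 T barcodes (vertical axis, percent) by the number of the 10 genes with a UMI (horizontal axis), for PEP-WT in blue and PEP-619WW in red, with all UMIs (left) and after thinning to 2000 UMIs (right). With all UMIs PEP-WT had more barcodes with 0 or 1 gene, and after thinning the shares with at least 3 genes were 36.9% and 38.8%.

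Single members changed unequally with thinning, and Sostdc1 went further apart. Icos was detected in 56.8% and 71.2% of CD4 T barcodes with all UMIs and in 34.2% and 37.4% after thinning. Sh2d1a was in 55.7% and 72.1%, and in 33.1% and 37.9% thinned. After thinning Cd200 was in 16.0% (11.8 to 21.0) and 20.9% (15.5 to 27.1), and Il21 in 5.70% (3.23 to 9.23) and 9.71% (6.03 to 14.6), with overlapping intervals for both genes. Sostdc1 was in 23.0% and 18.8% with all UMIs and in 17.5% and 11.2% after thinning (46 of 263 and 23 of 206 barcodes). Its intervals after thinning overlapped too. For comparison, thinned B barcodes held Icos in 1.02% and 0.898%, and Il21 in 0.137% and 0.150%, so the CD4 T shares lay well above those of a cell type that lacks these genes.

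The fourth comparison asked whether the genes were carried by the same CD4 T barcodes. Of 45 pairs, 44 in PEP-WT and 45 in PEP-619WW were found together more often than the product of their shares, with a median observed over expected ratio of 1.47 and 1.30. Most pairs of other genes did so too: among all genes found in 35 to 163 PEP-WT or 35 to 150 PEP-619WW barcodes, the range of the members, 93.8% and 85.4% of pairs were over 1, at a median of 1.37 and 1.15. Since a deep barcode shows more of every gene, the expected number was also summed within 3 bins of barcodes of rising depth. Again 44 and 45 pairs were over 1, at a median of 1.23 and 1.25, against 72.2% and 62.8% of the pairs of other genes, at a median of 1.08 and 1.04. These are descriptions over barcodes of 1 library, and with all 10 genes sharing the same barcodes the pairs are not independent.

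After thinning 41 and 44 pairs were over 1 within the depth bins, at a median of 1.38 and 1.49, but the rarer genes were then together in few barcodes. Pairs of other genes were not counted after thinning.

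The ratio has a lower ceiling for genes found in many barcodes, so any order of pairs favors the members found in few. Bcl6 was in 35 barcodes of each library and Il21 in 42 PEP-WT and 44 PEP-619WW barcodes. With all UMIs, this pair had the highest ratio by the lower of its 2 values. Bcl6 and Il21 were together in 16 PEP-WT barcodes, 2.38 times the depth-matched expectation, and in 16 PEP-619WW barcodes, 1.95 times. Thinning left 1 and 2 such barcodes, at 1.18 and 1.81, so this order did not hold at equal depth. The highest pair by the same measure was then Sostdc1 and Tbc1d4, at 1.89 in PEP-WT (26 barcodes) and 2.03 in PEP-619WW (14 barcodes), against 1.49 and 1.69 with all UMIs. With all UMIs Sostdc1 and Il21 followed, with 20 barcodes (1.68) and 17 barcodes (1.82). Bcl6 and Cxcr5 shared 13 barcodes (1.66) and 14 barcodes (2.07), and Cxcr5 and Il21 shared 18 (1.99) and 15 (1.63). Among the pairs with the lowest ratios were Sh2d1a with Tbc1d4, at 1.15 and 1.01, and with Tnfsf8, at 1.06 and 1.04. Sh2d1a was in 160 of 287 and 150 of 208 barcodes, which caps its ratios. Cxcr5 and Sostdc1 shared 11 PEP-WT barcodes (0.79) and 12 PEP-619WW barcodes (1.55), but after thinning the pair was above 1 in both libraries, at 1.19 and 1.42.

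**Figure D5:**
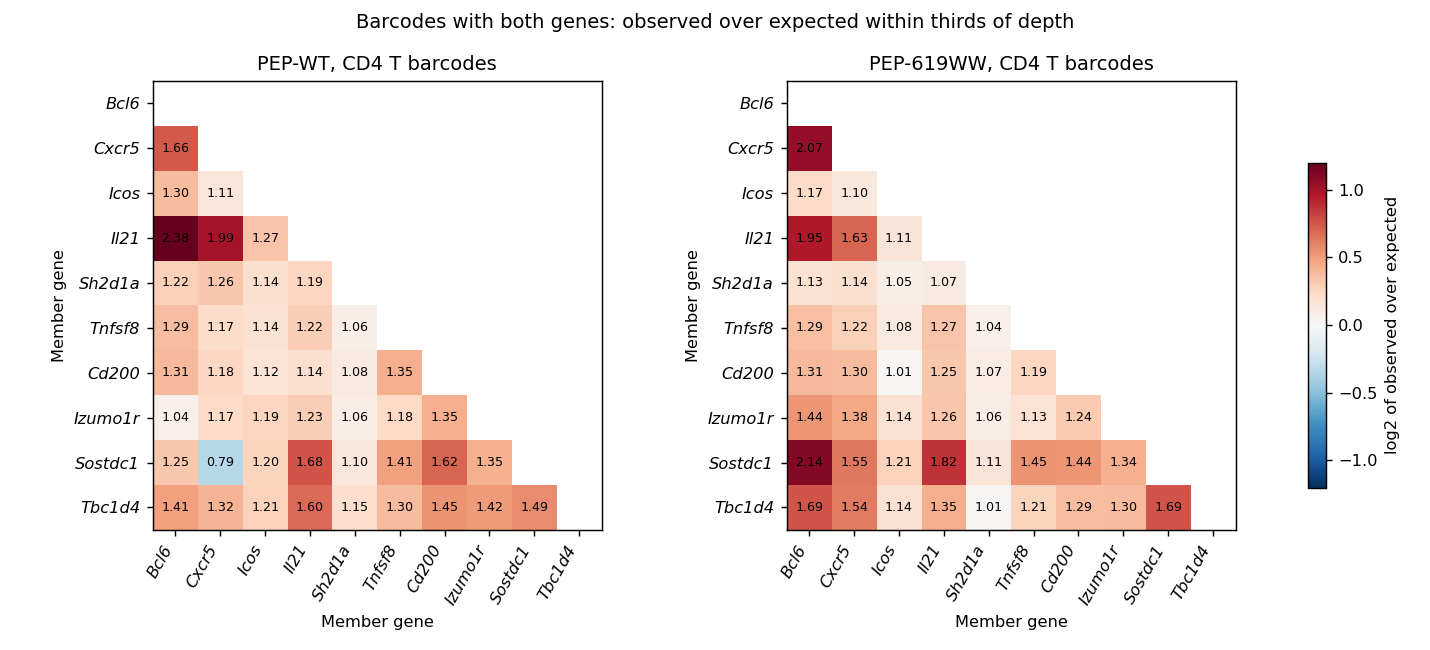
Barcodes with both genes over the number expected within 3 depth bins, for each of 45 pairs in PEP-WT (left) and PEP-619WW (right) CD4 T barcodes with all UMIs, printed in each cell and colored by its log2 (red above 1, blue below). The darkest cells were among Bcl6, Il21, Cxcr5 and Sostdc1, the members found in the fewest barcodes, for which the ratio has the highest ceiling. The single blue cell is Cxcr5 with Sostdc1 in PEP-WT, at 0.79.

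Izumo1r, Icos and Tbc1d4 are also known from regulatory T cells, so CD4 T barcodes were split by Foxp3, the factor that defines those cells. Only 11 PEP-WT (3.83%) and 15 PEP-619WW barcodes (7.21%) had a Foxp3 UMI. No member was at least 2-fold higher with Foxp3 in both genotypes (1.42% of 7050 genes were), and 3 were at least 2-fold lower (2.55%). These were Tnfsf8 at log2 ratios of -2.22 and -2.31, Il21 with 1 UMI and 0 UMIs in the Foxp3 barcodes, and Sostdc1 with 18 UMIs and 0 UMIs. At the floor of 3 UMIs in the PEP-619WW Foxp3 barcodes, their log2 ratios were -1.41 or lower and -2.47 or lower. In PEP-619WW, Il21 and Sostdc1 were thus counted as lower from an absence of UMIs in 15 Foxp3 barcodes. Il21 in PEP-WT was counted from 1 UMI in 11. So few barcodes cannot tell whether members were lower with Foxp3 more often than other genes. Izumo1r was at 131 CPM with and 160 CPM without Foxp3 in PEP-WT, and at 567 CPM with and 136 CPM without in PEP-619WW, a log2 ratio of -0.29 (-0.99 to 0.34) and of 2.06 (1.64 to 2.47). The summed members stood at -0.99 (-1.26 to -0.74) in PEP-WT and 0.03 (-0.19 to 0.24) in PEP-619WW, and the former was -0.10 once barcodes over 20000 UMIs were left out. Without the Foxp3 barcodes the log2 ratio of PEP-619WW over PEP-WT was -0.24 (-0.50 to 0.02) for Izumo1r and 0.78 (0.50 to 1.07) for Cd200.

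Pdcd1 encodes PD-1, which follicular helper cells and chronically stimulated T cells carry, and a split by it was chosen after the values were seen. It was in 123 PEP-WT (42.9%) and 100 PEP-619WW CD4 T barcodes (48.1%), which were deeper (median 6723 and 7578 UMIs) than those without it (3261.5 and 4833.5). Il21 and Sostdc1 were at least 2-fold higher with Pdcd1 in both genotypes, as were 0.851% of 7050 genes (1.46% were lower, with no member among them). Il21 was at 54.5 CPM with and 14.5 CPM without Pdcd1 in PEP-WT, and at 89.0 and 27.2 CPM in PEP-619WW. Sostdc1 was at 294 and 109 CPM in PEP-WT, and at 173 and 77.1 CPM in PEP-619WW. Both genes thus had higher levels in the barcodes with PD-1 transcript, whereas Izumo1r did not, at log2 ratios of -0.08 (-0.40 to 0.25) and -0.73 (-1.08 to -0.38). Between genotypes, the summed members differed by 0.02 (-0.07 to 0.11) within the Pdcd1 barcodes and by 0.37 (0.23 to 0.50) outside them.

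Beyond the members, 19 of 20 further follicular helper genes had enough UMIs in CD4 T barcodes, and 1 was at least 1.5-fold higher in PEP-619WW and 1 lower, at a median log2 ratio of 0.15. Irf4, a factor induced by antigen receptor signaling, was at 23.7 CPM in PEP-WT and 36.8 CPM in PEP-619WW. It was also higher in PEP-619WW in CD8 T barcodes, at 33.8 and 43.8 CPM, and in B barcodes, at 40.1 and 63.1 CPM. The part of RNA of other cells in its CD4 T values was not tested. Il4 was at 10.1 and 6.53 CPM in CD4 T barcodes. Maf, which drives Il21 in these cells, was at 160 and 235 CPM, Slamf6, a receptor upstream of SAP, at 225 and 312 CPM, and Tox2 at 51.0 and 74.3 CPM. Pdcd1 (149 and 134 CPM), Tcf7 (316 and 351 CPM) and Cd40lg (44.9 and 40.4 CPM) were close to each other in the libraries. Tcf7 and Cd40lg are, respectively, a factor that precedes Bcl6 and the signal that CD4 T cells give B cells through CD40.

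Genes that oppose the program or keep T cells out of follicles were measured as well. All 12 had enough UMIs, 4 were at least 1.5-fold higher in PEP-619WW and 0 lower, at a median of 0.40. Id2, an inhibitor of E proteins, was at 131 CPM in PEP-WT and 273 CPM in PEP-619WW, Il7r at a log2 ratio of 0.70, Selplg at 124 and 206 CPM, and Stat5b at 39.9 and 67.7 CPM. Prdm1, which encodes Blimp-1 and represses Bcl6, was at 17.7 and 25.5 CPM. Among 8 genes of type 1 helper cells, the other main fate of CD4 T cells in viral infection, 5 were higher in PEP-619WW and 0 lower. Examples were Il18r1 at 81.2 and 232 CPM, Ccl5 at 608 and 1395 CPM and Hopx at 74.7 and 147 CPM, while Ifng was at 129 and 125 CPM. The 4 genes of regulatory T cells held no gene 1.5-fold apart, and the 6 naive-like genes held Il7r alone. All these shares compare with the 10.0% of genes higher and 11.3% lower.

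Of 12 partner genes, 8 had enough UMIs, with 1 higher (Slamf1, 16.1 and 30.3 CPM) and 1 lower (Icosl, 7.57 and 4.75 CPM). Icosl encodes the ligand of ICOS and belongs to B and other antigen-presenting cells. Markers of B cells and conventional dendritic cells were also lower in the PEP-619WW gate, and their part in the Icosl value was not tested. The 4 genes of dividing cells went the other way from the type 1 genes, with 3 lower in PEP-619WW, such as Top2a at 302 CPM in PEP-WT and 179 CPM in PEP-619WW. Mki67, at 208 and 143 CPM, was the one less than 1.5-fold apart. A UMI of any of the 4 was nevertheless in more PEP-619WW barcodes, 52.4% against 42.2%, at the greater depth of that library. A split by Mki67, chosen after the values were seen, put the summed members at 862 CPM with and 2103 CPM without it in PEP-WT, and at 1091 and 2034 CPM in PEP-619WW. Dividing barcodes thus carried less of the program per UMI in both libraries, and they were also much deeper (median 12780 and 12067 UMIs).

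CD4 T barcodes with at least 3 members differed from those with none in other genes too. The former had a median depth of 5619 UMIs in PEP-WT and 6963 in PEP-619WW, the latter 2289 and 3206. RNA of other cells also differed between these classes. In PEP-WT the barcodes without a member had Hbb-bs, a hemoglobin gene, at 5531 CPM against 1133 CPM in those with at least 3. The B cell genes Cd79a (559 and 210 CPM) and Ms4a1 (228 and 107 CPM) and the antigen presentation gene H2-Aa (662 and 311 CPM) were higher there too. In PEP-619WW the barcodes without a member held at most 2 UMIs of each of these 4 genes. The part of this RNA in the ratios that follow was not tested. Among genes that are no members, Maf had 1 UMI in the barcodes without a member of each library and was at 173 and 238 CPM in those with at least 3, a log2 ratio of 4.46 (1.97 to 9.77) and 3.50 (1.01 to 8.81). Batf, a factor for activated T cells, was at 2.40 and 3.02, and Nfatc1, a factor downstream of the antigen receptor, at 2.06 and 2.23. Ikzf2, Itgb1, Pou2f2, 2310001H17Rik and A430093F15Rik also ranked among the 10 highest. So did the immunoglobulin genes Ighg2c (3.63 and 3.37) and Iglv1, which are products of B lineage cells.

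Among the lowest, Ccr7, the receptor that keeps T cells in the T zone, was at 165 and 253 CPM in barcodes without a member and at 32.7 and 38.9 CPM in those with at least 3. Igfbp4 (log2 ratios of -5.13 and -5.12), Ly6c1 (-5.06 and -6.48), Treml2, Atp1b1, Txk, Arl4c, Rasgrp2 and Il6ra were also among the 10 lowest. The barcodes without members were 41 and 13, so these values rest on few cells.

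Across 10 gates and both genotypes (20 points that share 2 libraries), the genes with the profile most like the mean of the members had Pearson correlations of 0.91 to 0.93 on log2(CPM + 1). They were Spock2, Axin2, A630023P12Rik, 4930417O13Rik, Ccl1, 6330403K07Rik, Tshz2, Cd40lg, Tnfsf11 and Nt5e, of 6915 genes compared. Nt5e, which encodes the ectoenzyme CD73, was at 64.1 and 68.3 CPM in CD4 T barcodes and 11.4 and 6.63 CPM in CD8 T. Cd40lg was at 44.9 and 40.4 CPM in CD4 T and 2.16 and 1.68 CPM in CD8 T barcodes.

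The second set of counts, run 2, held other cells. B barcodes made up 0.02% of its PEP-WT and 4.02% of its PEP-619WW library, against 45.1% and 34.9% in run 1. Barcodes with Csf1r and Lyz2 but no Cd3e, Cd79a or Ms4a1 made up 52.0% and 33.3%, against 4.08% and 4.38% in run 1. Its CD4 T gate had 7 PEP-WT and 287 PEP-619WW barcodes, which leaves no usable comparison of genotypes. In its PEP-619WW CD4 T barcodes, Cxcr5 was at 1.06 CPM (2 UMIs), Il21 at 4.77 CPM (9 UMIs) and Bcl6 at 14.9 CPM (28 UMIs), all below the 36.8, 64.8 and 28.5 CPM of run 1. Sostdc1 was at 8.49 CPM, with all 16 UMIs in a single barcode. Icos was at 178 CPM and Izumo1r at 114 CPM, closer to run 1. At least 3 members were seen in 28.2% of these barcodes, and in 6.61% after thinning.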

How the data were processed

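Pooled splenocytes were profiled with the 10x Genomics version 3.1 chemistry. The deposited files hold raw counts of UMIs, which the authors obtained with Cell Ranger on mm10 and did not normalize. The Cell Ranger version was 6.0.0 in the submitters' processing notes and a later one in the study's methods. A current symbol was matched for 32158 of 32285 gene identifiers. All deposited barcodes were kept, no doublet caller was run, and T barcodes that met the B gate stayed in both gates. A gate gene counted as present from 1 UMI. UMIs were summed per gate and scaled to 1000000. Intervals (95%) are exact Poisson for levels, exact conditional for ratios, Clopper-Pearson for shares and Newcombe for differences. Genes with at least 20 UMIs were compared, and 1.5-fold between genotypes, or 2-fold in both genotypes between other classes, counted as apart. Thinning drew 2000 UMIs per barcode without replacement. The log2 ratio and its interval were tested on simulated Poisson sums, without the grouping of UMIs by barcode that real cells show. Gating, thinning, shares and pairs were not tested in this way. The text names the members, genes of hand-written lists, the 10 highest and 10 lowest genes with at least 50 UMIs between barcodes with at least 3 and with 0 members, and the 10 genes of most similar profile. Genes with at most 3 UMIs in both classes, or for the lowest with 0 UMIs in barcodes without members, had no usable ratio and were left out. A gene that the rule names is not reported here. The members and lists were chosen with earlier results of these data known, and the Pdcd1 and Mki67 splits after the values were seen. Numpy 2.4.6, scipy 1.17.1 and pandas 2.3.3 were run under python 3.11.15, with matplotlib 3.10.9 for plots. The sources used here do not say how the 2 runs relate.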

Additional observations from a re-analysis of the deposited data

Results flagged for a closer look

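Members had a signal in cells outside the gates compared, above their CD4 T level of run 1 in both genotypes with the lower bound of the interval. Bcl6, which myeloid cells also use, was at 40.5 CPM (27.5 to 57.5, 31 UMIs) in the neutrophil barcodes of PEP-WT. In those of PEP-619WW it was at 42.8 CPM (32.1 to 56.0, 53 UMIs). It was detected in 13.9% and 17.8% of these barcodes. In both genotypes its interval there overlapped that of the CD4 T barcodes. Tbc1d4 was far above its CD4 T level in the conventional dendritic cell barcodes of run 2. Its level there was 714 CPM (587 to 861) over 16 PEP-WT barcodes, and 785 CPM (743 to 830) over 166 PEP-619WW barcodes.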

How the results depend on the processing

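No paired analysis was possible because each genotype had 1 pooled library per run. Values are log2 ratios of the summed members unless stated, and causes of the changes were not tested. PEP-619WW over PEP-WT in CD4 T barcodes (0.17) was 0.31 with Csf1r barcodes kept, 0.063 without barcodes over 20000 UMIs, 0.050 as a mean over barcodes, -0.011 thinned, -0.044 without T barcodes in the B gate and -0.061 without B cell or myeloid genes. In CD8 T barcodes (-0.21) it was 0.045 without B cell or myeloid genes and -0.13 without barcodes over 20000 UMIs. In B barcodes (-0.02) it was 0.12 without barcodes over 20000 UMIs, 0.19 thinned and 0.20 as a mean over barcodes, where Sostdc1 alone turned to 0.049.

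CD4 T over CD8 T in PEP-WT (1.85) was 2.11 without B cell or myeloid genes, 1.95 without barcodes over 20000 UMIs, 2.10 thinned, 1.74 scaled by the median of gene ratios, 2.04 as a mean over barcodes and 1.97 without T barcodes in the B gate. In PEP-619WW (2.23) it was 2.34 with Csf1r barcodes, 2.01 without B cell or myeloid genes, 2.14 without barcodes over 20000 UMIs, 2.33 thinned and 2.10 without T barcodes in the B gate. CD4 T over B in PEP-WT (3.20) was 3.07 with Csf1r barcodes, 3.68 without B cell or myeloid genes, 3.42 without barcodes over 20000 UMIs, 3.48 thinned, 3.01 scaled by gene ratios, 3.06 with totals without immunoglobulin, hemoglobin, ribosomal and mitochondrial genes, 3.39 as a mean over barcodes and 3.42 without T barcodes in the B gate. In PEP-619WW (3.39) it was 3.64 without B cell or myeloid genes, 3.28 thinned, 3.26 scaled by gene ratios, 3.24 with those totals and 3.23 as a mean over barcodes.

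With over without Foxp3 in PEP-WT (-0.99) was -0.62 without B cell or myeloid genes, -0.10 without barcodes over 20000 UMIs and -0.63 as a mean over barcodes, and in PEP-619WW (0.03) -0.20 without barcodes over 20000 UMIs. The 17.6 points between the shares with at least 3 members became 1.95 thinned.

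Run 2 held a different mix of cells and only 7 PEP-WT CD4 T barcodes. It gave 1.19 between genotypes in CD4 T, and -0.74 (turned) and 0.60 for CD4 T over CD8 T. CD4 T over B in PEP-619WW was 1.10 in run 2, and the Foxp3 ratios were -1.72 and -0.71. Its pairs over 1 numbered 7 and 29. In run 2 single members turned as well, with PEP-619WW over PEP-WT in CD8 T barcodes at 0.16 for Izumo1r and 2.02 for Tnfsf8, and CD4 T over CD8 T at -2.86 for Tbc1d4 and -0.61 for Cd200 in PEP-WT and -2.49 for Cxcr5 in PEP-619WW. The share of genes 1.5-fold apart in CD4 T barcodes was 21.3%, 38.5% with no minimum and 12.8% from 100 UMIs. Leaving out T barcodes in the B gate, those with Cd8a or each member's top barcode was chosen after seeing the data. So were all alternatives for the ratios between genotypes within CD8 T and B barcodes and for the Foxp3 ratios.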

Other observations

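In the same dendritic cell barcodes of run 2, Cd200 was at 104 CPM in PEP-WT (16 UMIs) and 164 CPM in PEP-619WW (267 UMIs). The conventional dendritic cell gate of run 1 held only 12 and 9 barcodes, in which Tbc1d4 was at 132 and 22.4 CPM from 17 and 2 UMIs. Plasma cell barcodes of run 1 carried all members at 5.16 CPM or less, with Sh2d1a the highest in PEP-WT.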
